A study of Mus musculus with 8 samples.

Results

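The lysosome and proton pump genes are 41 named genes for the enzymes, membrane proteins and acid pump of the lysosome, together with Tfeb and Tfe3, transcription factors known for driving many of them. Members were taken by symbol, each by the RefSeq transcript with the highest mean over the 8 libraries, and all 41 were found among the 17551 symbols of the deposited tables. A mean normalised read count of at least 20 was required for testing, which 35 members met. By role, the 35 comprise 8 proteases, 9 glycan and sulfate hydrolases, 5 lipid-handling genes, 7 membrane proteins and 6 proton pump genes. The filter left out the protease Ctss, the lipid-handling genes Psap and Lipa, the pump subunit Atp6v0a1 and both transcription factors.

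RNA came from lineage-negative bone marrow cells of C57BL/6 mice, a preparation enriched for haematopoietic stem and progenitor cells. Every library carries the labels Ring1a-/- and Cdkn2a-/-, so the Ring1b WT controls are also labelled as lacking Ring1a, the alternative ubiquitin ligase of the Polycomb complex PRC1, and the INK4A/ARF locus. Cells were labelled as not transduced (NT; its table has column heads that speak of an empty condition) or carried HOXA9, PML-RARa or MLL-AF9. In each of these 4 contexts 1 library was from ethanol-treated Ring1b WT cells (control) and 1 from Ring1b KO cells treated with 4-hydroxytamoxifen (OHT) for 72 h. The labels name neither what drives the deletion nor whether animals were pooled, and no group without OHT carries the KO label, so the agent and the deletion cannot be told apart.

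The lysosome is the acidic organelle in which proteins, glycans and lipids taken up by endocytosis, phagocytosis or autophagy are broken down. The vacuolar proton pump, built from a cytosolic ATP-hydrolysing sector (V1) and a membrane sector (V0), acidifies it, and the hydrolases work at that low pH. Macrophages are known for abundant lysosomes, and TFEB and its relatives TFE3, MITF and TFEC are known to bind the motif CACGTG near the start sites of many lysosomal genes.

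That motif is shown here because it was more frequent in the members' promoters than in others. Since it is already known from lysosomal genes, a higher frequency in a list of such genes is no independent result. Promoter windows from 250 bases before to 50 bases after the start were available from RefSeq (build GRCm38.p6) for 34 of the 41 members, and the other 7 had no entry. CACGTG was present in 11 of the 34 (32.4%), against 8.09% of all 27025 genes of the promoter table and 11.6% of the 7830 genes tested here. Its extended form TCACGTGA, which contains CACGTG, was present in 6 of 34 members (17.6%), against 1.12% of all genes and 2.20% of the genes tested. Both motifs read the same on both strands. Members' windows had a median GC content of 56.0% and the tested genes' windows 61.0%, so base composition also differs. The 11 members with CACGTG were Ctsa, Ctsd, Ctsl, Lamp1, Gla, Glb1, Gaa, Mcoln1, Atp6v1a, Atp6v0d1 and Sgsh. The 5 stretches below were picked to cover a protease, membrane proteins, a glycosidase and a pump subunit, with CACGTG in capitals and each written 5′ to 3′ on the strand of its gene. They lie upstream of the RefSeq start at chr7:142387910-142387935 (Ctsd, minus strand), chr8:13159080-13159160 (Lamp1, plus strand), chrX:134601174-134601252 (Gla, minus strand), chr8:3500464-3500489 (Mcoln1, plus strand) and chr16:44139365-44139410 (Atp6v1a, minus strand). The deposited values use the build mm9, and no coordinate was converted.
Ctsd: gcccgcgtctCACGTGacccgttgag
Lamp1: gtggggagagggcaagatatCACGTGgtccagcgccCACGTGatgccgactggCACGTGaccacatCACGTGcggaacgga
Gla: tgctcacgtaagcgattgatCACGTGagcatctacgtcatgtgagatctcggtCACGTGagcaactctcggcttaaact
Mcoln1: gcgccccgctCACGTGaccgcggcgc
Atp6v1a: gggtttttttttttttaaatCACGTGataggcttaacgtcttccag
The Lamp1 stretch holds 4 copies and the Gla stretch 2. The full windows of Ctsd and Mcoln1 hold 2 copies each, of which the shorter stretches show only 1, the TCACGTGA copy. A match describes these letters and does not show binding. The median log2 ratio of OHT to control was 0.55 over the 11 tested members that have it and 0.53 over the 17 tested members with a window that lacks it. CACGTG was present in 3 of the 9 members with a window that passed the limma test below (33.3%). It was present in 8 of the 19 that were tested and did not pass (42.1%).

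Levels are the authors' normalised read counts, that is reads divided by a size factor per library, and are not corrected for transcript length. Recovered read totals ran from 4226751 to 6998223 per library, and counting error alone puts 81.4 to 122 around a count of 100 reads (exact Poisson 95% interval). The target gene Rnf2, which encodes Ring1b, did not pass the test (mean log2 ratio -0.04 ± 0.14, limma adjusted p = 0.85). Which part of it is deleted is not labelled, so its total does not check the KO label. Reads on Ring1 (Ring1a), labelled -/- throughout, were present in all 8 libraries, at 109 to 190.9 in the control and 23.8 to 77.8 in the OHT libraries, and it fell (mean log2 ratio -1.81 ± 0.33, limma adjusted p = 0.040). The macrophage marker list differed between control and OHT libraries, and 10 of its 12 measured genes rose at a limma adjusted p under 0.05. Of all tested transcripts 6.40% rose and 7.48% fell, which also stands beside the marker counts that follow. The summed value of the 12 macrophage genes ran from 1246 to 3750 in the control libraries and from 10079 to 20688 in the OHT libraries. Lymphoid markers stayed near the floor, with sums from 4.52 to 13.6, and all 4 averaged under 20. Stromal and endothelial sums ran from 43.4 to 88.0. Progenitor markers (Cd34, Kit, Myb and Flt3) summed to between 208 and 289 in the control libraries and between 99.6 and 184 with OHT. Of the 3 that were tested, 1 (Myb) fell, and 1 had a mean ratio above 0. Neutrophil markers, of which 0 of 9 passed, summed to between 8441 and 14189 and between 3900.1 and 11795. Of the 3 eosinophil markers 2 fell, with sums of 1023 to 1768 in the control and 282 to 707 in the OHT libraries. Mast cell and basophil markers, of which 0 of 5 passed, summed to between 718 and 6289 and between 1513 and 8858. Erythroid sums ran from 49.8 to 384 over all libraries. In bulk RNA, a different share of a cell type and a different amount of RNA per cell cannot be told apart, and the part of these cell types in the results that follow was not tested.

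Across the 4 contexts most lysosomal genes had higher values in the OHT libraries. Of the 35 tested, 13 rose and 0 fell at a limma adjusted p under 0.05, against 6.40% of all 10599 tested transcripts that rose and 7.48% that fell. The 13 were the proteases Ctsb, Ctsl, Tpp1 and Ctsd, the glycosidases Gla and Hexa, the cholesterol exporters Npc1 and Npc2, the membrane proteins Cd68 and Scarb2, and the pump genes Atp6v1b2, Atp6ap1 and Atp6v1h. Their mean log2 ratios ran from 0.49 to 1.21. Over all 35 members the median mean ratio was 0.57, beside -0.03 for all tested transcripts. The ratio was above 0 in all 4 contexts for 30 members, against 22.9% of all tested transcripts. For 28 members every OHT library stood above every control library, against 8.28% of all tested transcripts.

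These calls stand close to the threshold. The limma adjusted p of the 13 ran from 0.035 to 0.050, and 15 further members had a value between 0.05 and 0.07. Over all tested transcripts the smallest limma adjusted p was also 0.035, so no call of this fit lies far below the threshold. Of the 35, 31 had an unadjusted limma p under 0.05, against 38.0% of all tested transcripts. edgeR on the recovered reads called 28 members higher and 0 lower, against 12.0% and 9.05% of all tested transcripts. DESeq2 called 28 higher and 1 (Arsb) lower, against 16.7% and 12.9%. With any 1 context left out limma called 0 members. In all 4 such fits each of the 13 had a ratio above 0 and an unadjusted limma p under 0.05 (adjusted p from 0.069 to 0.14). Of all 10599 tested transcripts, 2982 to 3319 had an unadjusted limma p under 0.05 in these fits. The 13 were picked by the fit on the same pairs, so their result in these fits is no separate one. The contexts serve as the replicates, with 1 library in each group, so the test asks only for a change that they share.

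**Figure D1:**
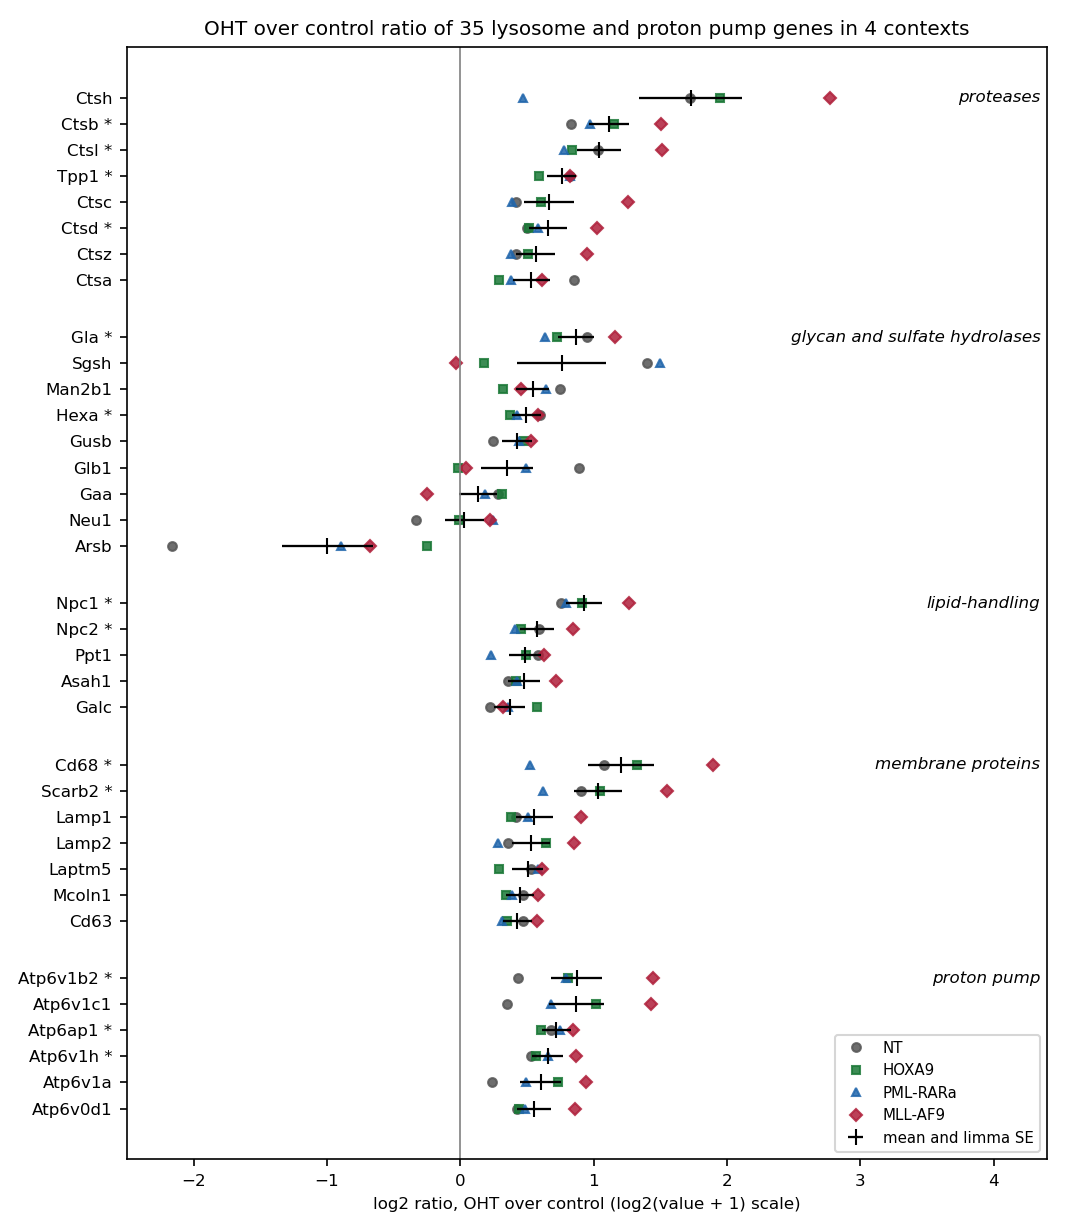
Log2 ratio of OHT to control (x axis, on the log2(value + 1) scale) for the 35 tested members (rows, by role), with 1 point per context, a cross for the mean and its limma SE, and an asterisk on the 13 members that passed the test. Ratios lie above 0 in all 4 contexts for 30 members, and Arsb is the 1 member below 0 in all 4.

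The proteases had the highest median ratio of the roles, 0.71 over 8 tested genes, of which 4 rose. Ctsb (NM_007798), the cysteine protease cathepsin B, had control and OHT values of 2288 and 4080.2 in NT, of 2142 and 4765 in HOXA9, of 2130.0 and 4176 in PML-RARa, and of 2199 and 6258 in MLL-AF9. The OHT libraries all stood above the control libraries, with MLL-AF9 the highest. Ctsb rose by 1.12 ± 0.15 on the log2 scale (SE, n = 4 contexts), 2.17-fold, with a limma adjusted p of 0.035. Ctsl (NM_009984), cathepsin L, another cysteine protease, had control and OHT values of 1049 and 2145 in NT, of 1079 and 1935 in HOXA9, of 1137 and 1948 in PML-RARa, and of 974 and 2778 in MLL-AF9. Its lowest OHT value, in HOXA9, was still above its highest control value, in PML-RARa. Ctsl rose by 1.04 ± 0.16, 2.06-fold, with a limma adjusted p of 0.036.

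Tpp1 (NM_009906), a peptidase that removes tripeptides and is lost in a neuronal ceroid lipofuscinosis, had control and OHT values of 1576 and 2785 in NT, of 1499 and 2253 in HOXA9, of 1591 and 2809 in PML-RARa, and of 1385 and 2446 in MLL-AF9. The groups did not overlap, and the 4 ratios were close together, from 0.59 to 0.82. Tpp1 rose by 0.76 ± 0.11, 1.70-fold, with a limma adjusted p of 0.036. Ctsd (NM_009983), the aspartic protease cathepsin D, had the highest control level per kb of transcript among the tested members, a mean normalised read count of 1175 per kb. It had control and OHT values of 2635 and 3729 in NT, of 2244 and 3212 in HOXA9, of 2818 and 4232 in PML-RARa, and of 2296 and 4685 in MLL-AF9. The groups did not overlap, and the ratio of 1.03 in MLL-AF9 stood apart from 0.50 to 0.59 elsewhere. Before scaling, however, its OHT reads were nearly equal, from 3434 in MLL-AF9 to 3589 in NT. Its OHT values thus differ mainly by size factor. Control reads ran from 2168 in MLL-AF9 to 3185 in NT. The part of the read ceiling described below in the MLL-AF9 ratio was not tested. Ctsd rose by 0.66 ± 0.14, 1.58-fold, with a limma adjusted p of 0.047.

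Ctsh (NM_007801), a cysteine cathepsin that acts mainly as an aminopeptidase, had the largest mean ratio of the tested members but did not pass the test. Its values were 190.3, 303, 585 and 219 in the control libraries and 629.6, 1173, 810.5 and 1502 in the OHT libraries, in the order NT, HOXA9, PML-RARa and MLL-AF9. All OHT values stood above all control values, yet the ratio ran from 0.47 in PML-RARa, whose control library was the highest of the 4, to 2.77 in MLL-AF9. On average the log2 ratio was 1.73 ± 0.39 (limma adjusted p = 0.051; edgeR adjusted p = 0.029). Ctsc, which activates granule serine proteases, stood on average at a log2 ratio of 0.67 ± 0.19 (limma adjusted p = 0.073), and the carboxypeptidase Ctsz at 0.57 ± 0.14 (limma adjusted p = 0.062). Ctsa, which shields β-galactosidase and neuraminidase from breakdown, had few reads, with values from 23.2 to 49.1, and on average a log2 ratio of 0.53 ± 0.14 (limma adjusted p = 0.065).

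**Figure D2:**
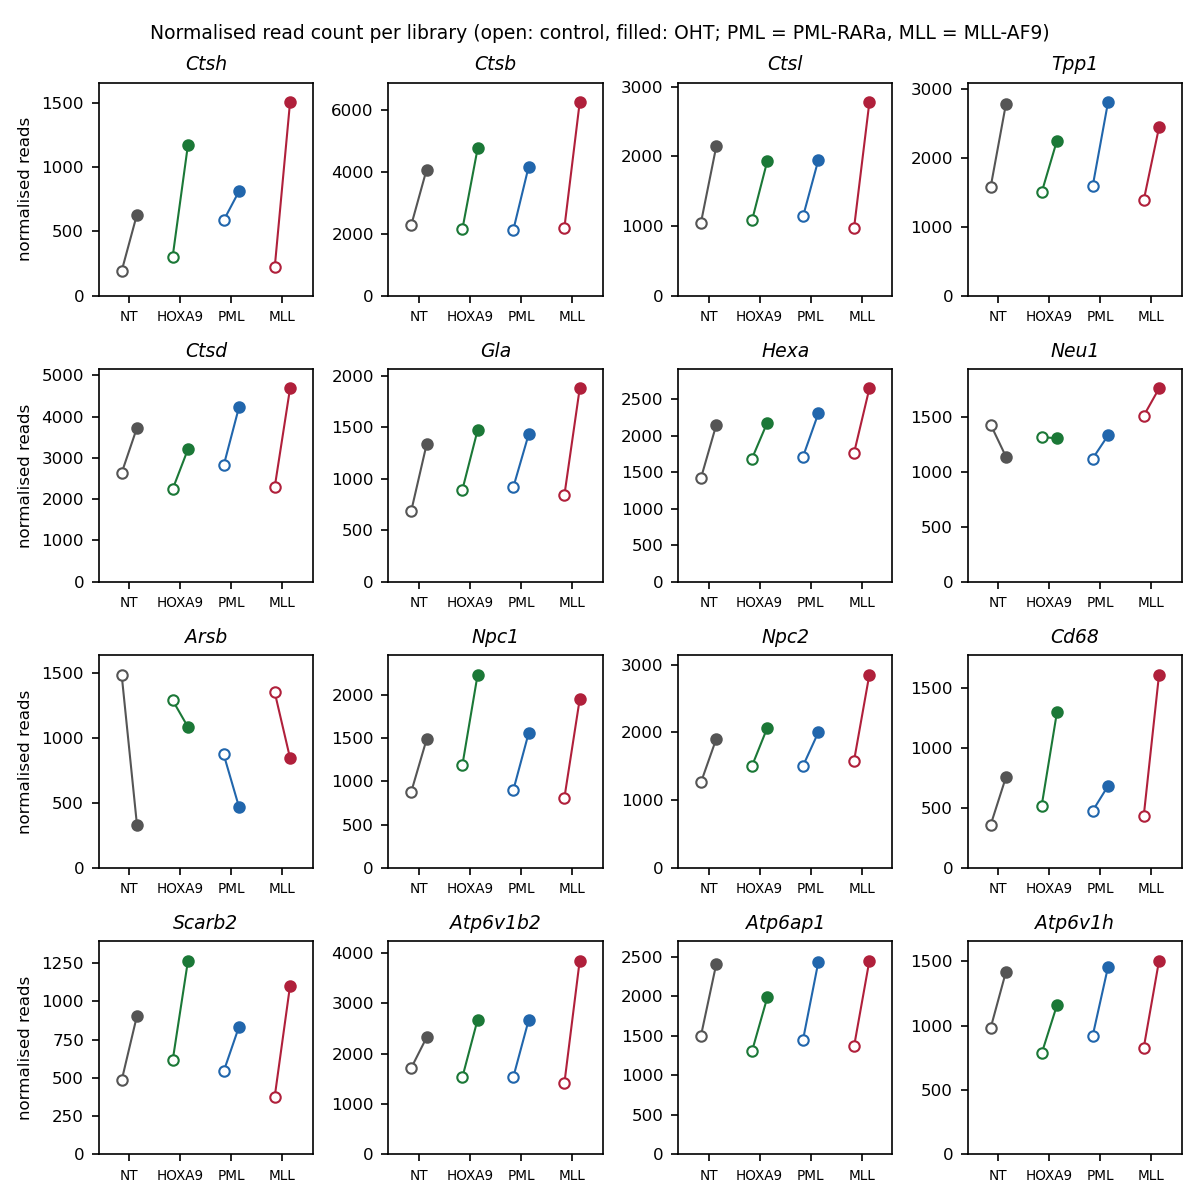
Normalised read count (y axis, linear, from 0, 1 panel per gene) in each context (x axis) for 16 members, the 13 that rose with Ctsh, Neu1 and Arsb; open points are control libraries, filled points OHT libraries, 1 library each, joined within a context. Ctsb lies between 2130 and 2288 in the control libraries and between 4080 and 6258 in the OHT libraries, while Arsb is lower with OHT in every context.

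Glycan and sulfate hydrolases held both rises and the lowest ratios of the module. Their median ratio was 0.42 over 9 tested genes, and 2 rose. Gla (NM_013463), the α-galactosidase A that is deficient in Fabry disease, had control and OHT values of 690.0 and 1334 in NT, of 892 and 1473 in HOXA9, of 919.6 and 1432 in PML-RARa, and of 841 and 1877 in MLL-AF9. The groups did not overlap, and Gla rose by 0.87 ± 0.14, 1.82-fold, with a limma adjusted p of 0.036. Hexa (NM_010421), the hexosaminidase A subunit that is deficient in Tay-Sachs disease, had control and OHT values of 1421 and 2149.7 in NT, of 1689 and 2182 in HOXA9, of 1715 and 2308 in PML-RARa, and of 1766 and 2649 in MLL-AF9. OHT libraries were again all above control libraries, by a smaller margin than for Gla. Hexa rose by 0.49 ± 0.11, 1.41-fold, with a limma adjusted p of 0.050. The α-mannosidase Man2b1 had on average a log2 ratio of 0.54 ± 0.12 (limma adjusted p = 0.053) and the β-glucuronidase Gusb one of 0.42 ± 0.11 (limma adjusted p = 0.064), and both were higher with OHT in all 4 contexts.

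The remaining 5 hydrolases were the tested members whose ratio was not above 0 in every context. Neu1 (NM_010893), the lysosomal sialidase, had control and OHT values of 1432 and 1139.8 in NT, of 1318 and 1307 in HOXA9, of 1122 and 1333 in PML-RARa, and of 1512 and 1761 in MLL-AF9. It was lower with OHT in NT and HOXA9, and higher in PML-RARa and MLL-AF9. On average its log2 ratio was 0.03 ± 0.14 (limma adjusted p = 0.89). Gaa (NM_008064), the glycogen-degrading acid α-glucosidase, had low values, 32.3, 57.3, 57.4 and 42.4 in the control libraries and 39.5, 71.5, 65.5 and 35.5 in the OHT libraries, in the context order used above. The groups overlapped, and the ratio was on average 0.13 ± 0.14 (limma adjusted p = 0.53).

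Sgsh, a sulfatase that acts on heparan sulfate, and Glb1, β-galactosidase, differed in the same contexts and were picked for naming after their values were seen. Sgsh had control and OHT values of 142 and 377 in NT, of 485 and 547 in HOXA9, of 159 and 451 in PML-RARa, and of 324 and 317 in MLL-AF9, so that NT and PML-RARa were more than 2-fold apart, and the log2 ratios in HOXA9 and MLL-AF9 were 0.17 and -0.03. Glb1 had control and OHT values of 1126 and 2089 in NT, of 1520.1 and 1506 in HOXA9, of 2093 and 2943 in PML-RARa, and of 1126 and 1157 in MLL-AF9, again with the larger differences in NT and PML-RARa. Neither passed the test (limma adjusted p = 0.17 for Sgsh and 0.25 for Glb1).

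Arsb (NM_009712), arylsulfatase B, which acts on dermatan and chondroitin sulfate, was the 1 tested member lower with OHT in all 4 contexts. It had control and OHT values of 1486 and 331 in NT, of 1288 and 1082 in HOXA9, of 872 and 468 in PML-RARa, and of 1349 and 844 in MLL-AF9. The groups overlapped, since the HOXA9 OHT value was above the PML-RARa control value. In NT the OHT value was 0.223 of the control value (319 against 1796 reads, counting interval 0.197 to 0.251). On average the OHT value was 0.501 of the control value, with an SE of 0.34 on the log2 scale, and limma did not call it (adjusted p = 0.11), nor did edgeR (adjusted p = 0.097), while DESeq2 did (adjusted p = 0.0205).

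Among the lipid-handling genes 2 of 5 tested rose, with a median ratio of 0.48. Npc1 (NM_008720), the membrane protein that exports cholesterol from the lysosome, had control and OHT values of 880.3 and 1484 in NT, of 1184 and 2232 in HOXA9, of 899 and 1557 in PML-RARa, and of 809 and 1947 in MLL-AF9. The groups did not overlap, and the HOXA9 and MLL-AF9 OHT libraries were the highest. Npc1 rose by 0.93 ± 0.14, 1.91-fold, with a limma adjusted p of 0.036. Npc2 (NM_023409), the soluble protein that hands cholesterol to NPC1, had control and OHT values of 1262 and 1905 in NT, of 1505 and 2068 in HOXA9, of 1506 and 2001 in PML-RARa, and of 1584 and 2854 in MLL-AF9. OHT values were all above control values, with MLL-AF9 the highest. Npc2 rose by 0.58 ± 0.13, 1.49-fold, with a limma adjusted p of 0.049. The other 3 did not pass, each with a ratio above 0 in all 4 contexts. The thioesterase Ppt1 had a mean log2 ratio of 0.48 ± 0.12, acid ceramidase Asah1 one of 0.48 ± 0.12, and galactosylceramidase Galc one of 0.37 ± 0.12, with limma adjusted p-values of 0.061, 0.059 and 0.088.

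Of the 7 membrane proteins 2 rose, and the median ratio was 0.53. Cd68 (NM_009853), a heavily glycosylated lysosomal protein best known as a macrophage marker, had control and OHT values of 357 and 756 in NT, of 518 and 1299 in HOXA9, of 476 and 683 in PML-RARa, and of 432 and 1613 in MLL-AF9. The groups did not overlap, and the ratio was lowest in PML-RARa, at 0.52, and highest in MLL-AF9, at 1.90. Cd68 rose by 1.21 ± 0.25, 2.31-fold, with a limma adjusted p of 0.045, the largest mean ratio among the 13. Scarb2 (NM_007644), or LIMP-2, which carries glucocerebrosidase to the lysosome, had control and OHT values of 482 and 905 in NT, of 613 and 1267 in HOXA9, of 542 and 834 in PML-RARa, and of 376 and 1102 in MLL-AF9. Again all OHT libraries were above all control libraries. Scarb2 rose by 1.03 ± 0.18, 2.04-fold, with a limma adjusted p of 0.039.

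The major lysosomal membrane glycoproteins Lamp1 and Lamp2 had mean log2 ratios of 0.55 ± 0.14 and 0.53 ± 0.14, and neither passed (limma adjusted p = 0.060 and 0.067). A second Lamp2 transcript with fewer reads, NM_001017959, had a mean log2 ratio of 0.83 ± 0.15 and did pass (limma adjusted p = 0.040); it was named after its values were seen. Laptm5, a lysosomal protein of haematopoietic cells, stood at 0.50 ± 0.11 (limma adjusted p = 0.052). The cation channel Mcoln1 stood at 0.45 ± 0.11 (limma adjusted p = 0.057), and the tetraspanin Cd63 at 0.43 ± 0.11 (limma adjusted p = 0.063). All 5 genes, by the transcript with the highest mean, were higher with OHT in each of the 4 contexts. Another Cd63 transcript, NM_001042580, had a mean of 19.6, under the filter, and was not tested. Its log2 ratios were -2.09, -0.09, 0.30 and -0.33 in the context order used above. The remaining Cd63 transcript, NM_001282966, had a mean of 3.9 and ratios above 0 in all 4 contexts. Both were named after their values were seen.

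Proton pump genes had a median ratio of 0.69 over 6 tested genes, and 3 rose. Atp6v1b2 (NM_007509), a B subunit of the ATP-hydrolysing V1 sector, had control and OHT values of 1716 and 2320.1 in NT, of 1526 and 2678 in HOXA9, of 1536 and 2667 in PML-RARa, and of 1411 and 3849.9 in MLL-AF9. The groups did not overlap, and the MLL-AF9 OHT library was well above the rest. Atp6v1b2 rose by 0.87 ± 0.19, 1.83-fold, with a limma adjusted p of 0.050. Atp6ap1 (NM_018794), an accessory subunit known to help assemble the pump, had control and OHT values of 1499.9 and 2411 in NT, of 1303 and 1986 in HOXA9, of 1449 and 2435 in PML-RARa, and of 1365 and 2452 in MLL-AF9. Its 4 ratios lay between 0.61 and 0.84, with no overlap of the groups. Atp6ap1 rose by 0.72 ± 0.11, 1.65-fold, with a limma adjusted p of 0.036.

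Atp6v1h (NM_133826), the regulatory H subunit of V1, had control and OHT values of 980.4 and 1418 in NT, of 783 and 1158 in HOXA9, of 921 and 1456 in PML-RARa, and of 826 and 1505 in MLL-AF9. OHT values stood above every control value, with ratios from 0.53 to 0.86. Atp6v1h rose by 0.66 ± 0.12, 1.58-fold, with a limma adjusted p of 0.039. The catalytic subunit Atp6v1a, the stalk subunit Atp6v1c1 and the V0 subunit Atp6v0d1 did not pass, with mean log2 ratios of 0.60 ± 0.16, 0.87 ± 0.21 and 0.55 ± 0.13 and limma adjusted p-values of 0.064, 0.057 and 0.053. In all 3 the OHT libraries were nevertheless above the control libraries in every context.

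The 6 members under the filter have mean values from 2.3 to 16.3, and no ratio of theirs was tested. Lipa, the lysosomal acid lipase, had 9.93, 7.47, 6.70 and 7.41 in the control libraries and 15.6, 26.2, 15.5 and 35.5 in the OHT libraries, in the context order above. Ctss, cathepsin S, known for its part in antigen presentation, had 1.65, 3.32, 1.91 and 2.12 in the control libraries and 10.4, 7.24, 7.14 and 10.9 in the OHT libraries. Both were higher with OHT in all 4 contexts. Psap, the precursor of the saposins that activate sphingolipid hydrolases, was also higher in all 4, but at values of 1.06 to 15.01. Tfeb ran from 8.27 to 32.6, Tfe3 from 0.83 to 4.52 and Atp6v0a1, a membrane subunit of V0, from 3.18 to 9.35, and for these 3 some contexts were higher and others lower. Such levels rest on a few reads, and the transcripts given for Psap, Tfe3 and Ctss had fewer than 20 reads in every library. Another Psap transcript reached a value of 19.9 in the HOXA9 OHT library. In all, 7 members have several transcripts (Ctsa, Lamp2, Gaa, Psap, Cd63, Tfeb and Tfe3), and all but Lamp2 have means of 75.5 or less. How reads shared by transcripts of a gene were counted is not given, so these levels may not stand for the whole gene. Ctss, Lipa and Atp6v0a1 have 1 transcript each here, and whether it stands for the whole gene was not tested either.

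Strand is not marked by the library kit, and 10 members overlap another protein-coding gene in RefSeq, whose reads cannot be told apart from theirs where the exons meet. Among the 13 that rose these are 4: Ctsb (with Fdft1), Hexa (with Tmem202), Npc1 (with Rmc1) and Atp6v1b2 (with Slc18a1). Of the hydrolases described above, Sgsh overlaps Slc26a11 and Card14, and Glb1 overlaps Tmppe.

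Read density bears on these values, since transcripts in the deposited data have a ceiling near 2 reads per base of their length. The members are abundant: 25 of the 35 exceed 0.5 reads per base in some library and 12 exceed 1. Those 12 are Ctsb, Ctsc, Ctsd, Ctsl, Ctsz, Lamp1, Glb1, Hexa, Man2b1, Laptm5, Atp6v1b2 and Atp6ap1, with Ctsd the densest at 1.69. Cd68 had no known length. Because each OHT library has the smaller size factor of its pair, a transcript with equal reads in both libraries gets a log2 ratio above 0, namely 0.33, 0.12, 0.31 and 0.37 in the context order above.

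Split by density, the 9 members at up to 0.5 reads per base had a median ratio of 0.45 and 2 rose (Npc1 and Scarb2), beside a median of -0.07 for all tested transcripts of that density, of which 6.13% rose. From 0.5 to 1, 4 of 13 members rose with a median of 0.58, beside 0.05 and 7.43%. Above 1, 6 of 12 members rose with a median of 0.61, beside 0.19 and 7.71%. The recovered reads themselves, before any scaling, were more numerous in the OHT library in all 4 contexts for 24 of the 35 members, against 10.5% of all tested transcripts. Every OHT library had fewer reads in total than its control, but in HOXA9 the totals were nearly equal (6641843 and 6657911). These 24 include all 13 that rose and 11 of the 12 above 1 read per base. The 13 were picked by their rise in these same libraries, so their presence among the 24 is no separate result.

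**Figure D3:**
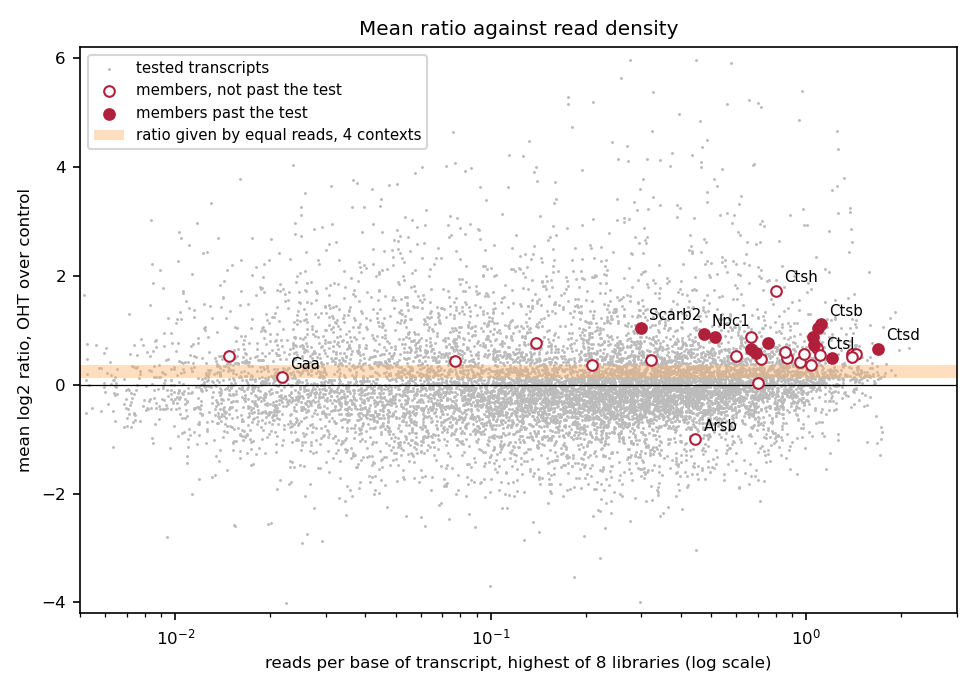
Mean log2 ratio of OHT to control (y axis) against the highest reads per base of transcript in any of the 8 libraries (x axis, log scale) for all tested transcripts (grey) and the members with a known length (circles, filled where they passed the test). The shaded band spans the ratios that equal reads give in the 4 contexts, 0.12 to 0.37, and 12 members lie above 1 read per base.

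Taken by context, the members' ratios were highest in MLL-AF9, a difference between contexts that 1 library a group does not allow to be tested. Their median ratio was 0.85 there, 0.53 in NT, 0.51 in HOXA9 and 0.49 in PML-RARa, beside -0.10, 0.03, 0.01 and -0.09 over all tested transcripts. MLL-AF9 gave the largest of the 4 ratios for 25 of the 35 members (71.4%), against 24.8% of all tested transcripts. MLL-AF9 also has the largest log2 ratio given by equal reads (0.37), and its OHT library has the fewest reads (4226751). The 2 sets are not matched for density: 8428 of all 10599 tested transcripts are at up to 0.5 reads per base, against 9 of the 35 members. The part of depth and density in this difference was not tested. Members made up 0.719% of the reads of the NT control library and 1.01% of the NT OHT library. The shares were 0.775% and 1.06% in HOXA9, 0.787% and 1.14% in PML-RARa, and 0.736% and 1.35% in MLL-AF9. All 4 OHT libraries thus held a larger share than any control library. The summed macrophage markers also differed most in MLL-AF9, by 12.8-fold, against 3.55-fold in NT, 5.52-fold in HOXA9 and 3.92-fold in PML-RARa, and their part in the members' ratios was not tested.

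Within a context there is 1 library a group and no test, so members at least 2-fold apart were counted. In NT 4 members were 2-fold higher (Ctsh, Ctsl, Cd68 and Sgsh) and Arsb was 2-fold lower, against 11.9% and 7.84% of all tested transcripts. HOXA9 had 5 higher (Ctsb, Ctsh, Cd68, Atp6v1c1 and Scarb2) and 0 lower, against 7.90% and 4.93%. PML-RARa had only Sgsh higher and 0 lower, against 7.68% and 12.2%. MLL-AF9 had 11 higher and 0 lower, against 13.4% and 13.6%. These 11 were Ctsb, Ctsc, Ctsd, Ctsh, Ctsl, Gla, Npc1, Cd68, Scarb2, Atp6v1b2 and Atp6v1c1. In NT and PML-RARa the share of members 2-fold higher was thus near or below the background, so the members' differences there were mostly of less than 2-fold. Ctsh and Cd68 were 2-fold higher in 3 of the 4 contexts, and in both PML-RARa was the exception.

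By role and context, the proton pump genes had their highest median ratio in MLL-AF9 (0.90), and 0.43 in NT and 0.67 in both HOXA9 and PML-RARa. The proteases had 0.83, 0.60, 0.53 and 1.14 in the order NT, HOXA9, PML-RARa, MLL-AF9. For the glycan and sulfate hydrolases MLL-AF9 was the lowest instead, with 0.60, 0.31, 0.44 and 0.22.

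In the 3 transduced contexts alone, 0 members passed limma's test (smallest adjusted p 0.078), against 0.226% of all tested transcripts that rose and 0.0189% that fell. The members' median ratio was 0.60, and 30 of 35 had an unadjusted p under 0.05, against 30.2% of all. edgeR called 8 members higher and 0 lower, against 3.43% and 1.60% of all tested transcripts. DESeq2 called 26 higher and 0 lower, against 11.2% and 7.22%. The ratio in the transduced contexts was also compared with that in NT. At an adjusted p under 0.05, limma called 0 members and 0.00% of all tested transcripts, and 1 member (Arsb) against 5.41% of all had an unadjusted p under 0.05. The Arsb ratio was 1.55 higher in the transduced contexts on the log2 scale (limma unadjusted p = 0.016), and the smallest adjusted p of any member was 0.82.

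In the control libraries few members differed by 2-fold between contexts. The following ratios of control libraries have 1 library a context and no test, and those over NT share the NT library. Against NT, 1 member was 2-fold higher in HOXA9 and 0 lower (10.3% and 6.46% of all tested transcripts), 1 higher in PML-RARa and 0 lower (10.8% and 7.28%), and 1 higher in MLL-AF9 and 0 lower (6.99% and 9.94%). Sgsh was the member higher in HOXA9, by 3.41-fold (counting interval 2.87 to 4.06), and in MLL-AF9, by 2.28-fold (1.88 to 2.76). Ctsh was the one in PML-RARa, by 3.07-fold (2.64 to 3.59). The members' median log2 ratios to NT were 0.03, 0.12 and -0.00.

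Between transduced contexts, 0 members were 2-fold apart for MLL-AF9 over HOXA9, against 2.61% higher and 10.1% lower of all tested transcripts. For PML-RARa over MLL-AF9, Ctsh was 2.67-fold higher and Sgsh stood at 0.490, against 14.1% and 7.00%. For PML-RARa over HOXA9, Sgsh stood at 0.328 and 0 members were 2-fold higher, against 6.06% higher and 4.97% lower. Glb1 and Arsb moved apart by less: in PML-RARa the control level of Glb1 was 1.86 times that of NT, and that of Arsb 0.587 times.

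Per kb of transcript, mean control levels ran from 1175 normalised reads for Ctsd, 1026 for Laptm5, 934 for Ctsz and 921 for Lamp1 down to 13.0 for Gaa and 8.86 for Ctsa among the tested members. The densest of these are the ones nearest the read ceiling.

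**Figure D4:**
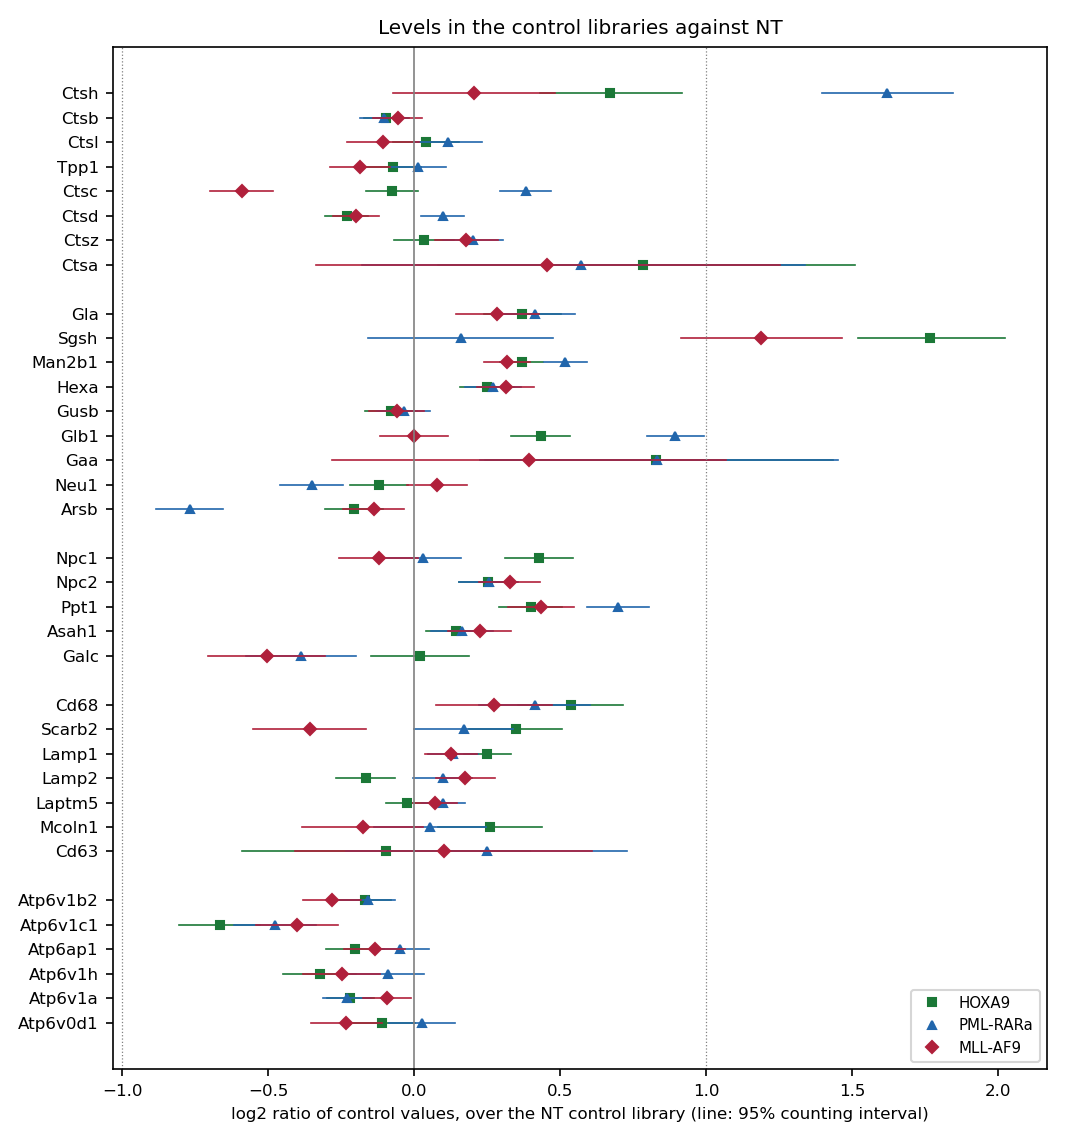
Log2 ratio of the control library of each transduced context to the NT control library (x axis) for the 35 tested members (rows, by role), with lines for the 95% counting interval and dotted lines at 2-fold; all 3 ratios share the NT library. Sgsh is beyond 2-fold in HOXA9 and MLL-AF9 and Ctsh in PML-RARa, while the points of the other members lie within 2-fold.

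The wider pathway was described with further lists of genes that are no members. Of 45 further lysosome genes, 41 were tested, 17 rose and 0 fell, with a median ratio of 0.64. The largest rises were in the collagen-degrading protease Ctsk (4.46 ± 0.57), the asparaginyl endopeptidase Lgmn (3.23 ± 0.56) and the cysteine protease Ctsf (2.74 ± 0.38). All 3 exceed the mean ratio of each of the 13 members that rose. Of 14 further pump subunits found, 12 were tested and 2 rose, with a median of 0.44. One was Atp6v0d2, a V0 subunit known from osteoclasts and macrophages, with control and OHT values of 181 and 1223 in NT, of 12.5 and 1325 in HOXA9, of 11.5 and 709 in PML-RARa, and of 2.12 and 1052 in MLL-AF9 (mean log2 ratio 5.90 ± 0.94, limma adjusted p = 0.036). Its OHT values were all above its control values, whereas the member Atp6v0d1, the widely expressed counterpart, had a mean log2 ratio of 0.55 ± 0.13. The V1 subunit Atp6v1d rose by 0.79 ± 0.15.

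Of 17 genes that sense nutrients at the lysosome or belong to the TFEB family, 15 were tested and 1 rose, a share near the 6.40% of all tested transcripts. It was Rragc (0.81 ± 0.14), a subunit of the Rag GTPases that recruit mTORC1, with a median ratio of 0.26 for the list. Of 23 autophagy genes 20 were tested: the cargo receptor Sqstm1 (0.80 ± 0.17) and the tethering subunit Vps33a (0.70 ± 0.12) rose, Wipi1 fell (-0.85 ± 0.15), and the median was 0.43. These counts stand beside 6.40% of all tested transcripts that rose and 7.48% that fell. No test compared these lists with each other or with the members.

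**Figure D5:**
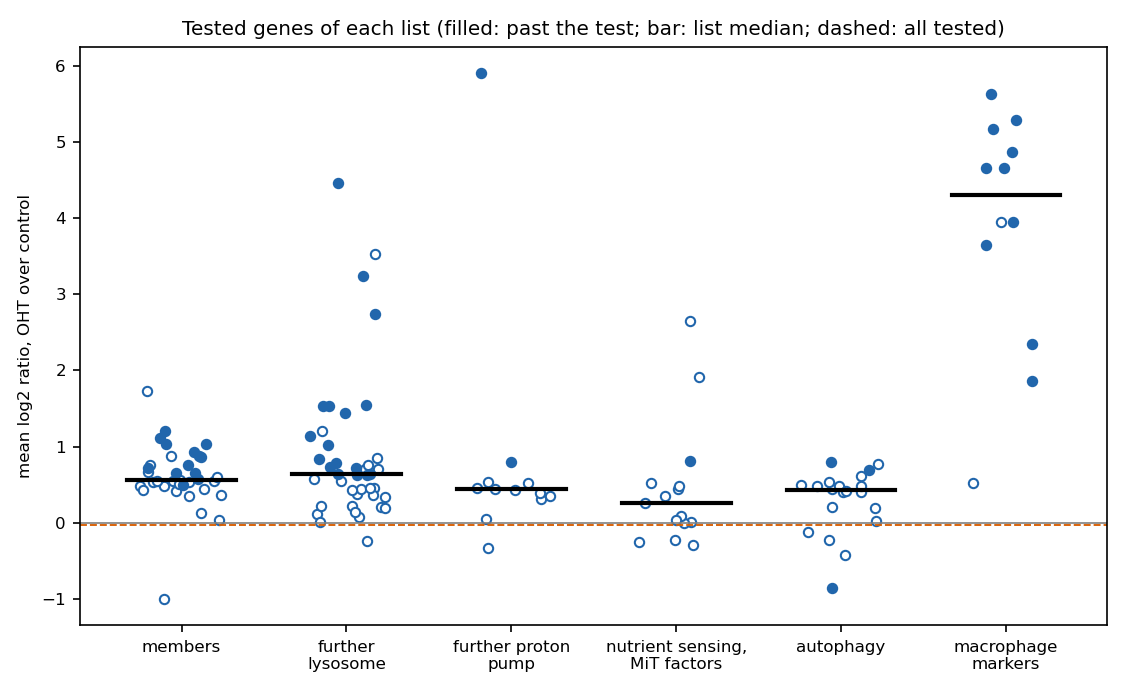
Mean log2 ratio of OHT to control (y axis) for the tested genes of the member list, the 4 companion lists and the macrophage markers (x axis), 1 point per gene, filled where the test was passed, with a bar at the list median and a dashed line at the median of all tested transcripts. The members have a median of 0.57, the further lysosome genes 0.64 and the macrophage markers 4.30.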

How the data were processed

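Per the labels' protocols, cells were treated for 72 h and the kit was TruSeq RNA, whose libraries carry no strand information. The submitters' processing notes name TopHat, DESeq and mm9, and for the read counter the tool is not given in the sources used here. Per the file headers, the signal columns of the 4 deposited tables hold the authors' normalised read count of 19353 RefSeq transcripts. The ratio column is the authors' fold change, the log2 column its deposited log2, and the p-value column the authors' unadjusted p of 1 library against 1; these 3 were not used for results here.

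Dividing each library's values by its lowest gave whole reads for 100% of values (tolerance 0.02), with size factors computed jointly over the 8 libraries. From 15.1% to 20.0% of transcripts stand at that lowest entry of 1 read, which may stand for 0. limma (3.58.1, R 4.3.3) was run on log2(value + 1) with the context as a block over 10599 transcripts with a mean of at least 20, two-sided, with Benjamini-Hochberg adjustment over all of them. The p-values measure the spread between contexts, and ratios on this scale understate changes of low values. edgeR (4.0.16, quasi-likelihood) and DESeq2 (1.42.0) were run on the recovered reads. Scripts were tested on simulated data. Values in full are given for members past the test, those 2-fold apart in 3 or more contexts, and the 3 largest and 3 smallest mean ratios. Other genes of a companion list are named if past the test, at most the 4 largest rises and 2 largest falls; 1 such gene is not reported here. The block follows from the design: both libraries of a pair share a context. Members, lists and rules were chosen with earlier results of these data known.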

Additional observations from a re-analysis of the deposited data

How the results depend on the processing

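The number of members called higher across the 4 contexts (13 with limma) depends on the processing more than their direction does. It was 28 with edgeR, 28 with DESeq2 (which also called 1 lower), 27 with an intensity trend in limma, 20 with a minimum mean of 50 and 0 with no filter on low values. Without transcripts over 0.5 reads per base it was 2, of the 9 members then tested. Leaving out 1 pair gave 0 to 0 members. Over all transcripts, 678 rose and 793 fell with limma. The number higher was 1768 with DESeq2, 1276 with edgeR, 1131 with the trend and 207 with no filter, and 0 to 24 with 1 pair left out. The number lower was 1362 with DESeq2, 147 with no filter and 0 to 2 with 1 pair left out. Scaling by total recovered reads, an alternative chosen after seeing the data, called 1217 lower and 673 higher, and called 10 members higher, 9 of them among the 13. A pseudocount of 10 called 18. Centring the ratios per context called 13, of which 11 were among the 13 of the main fit. With the transcripts of each symbol summed, 1 member lost its call. Fewer pairs or more low transcripts are part of how those alternatives are built; for the others the cause was not tested.

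With no replicate block, that is without the pairing of the 2 libraries of a context, 14 members were called higher, 11 of them among the 13, and 389 transcripts rose in all.

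In the 3 transduced contexts DESeq2 called 26 members higher, edgeR 8 and the trend 5. Within a context, a 1.5-fold threshold gave 15 members higher in NT (1 lower), 14 in HOXA9 (0 lower), 14 in PML-RARa (1 lower) and 24 in MLL-AF9 (1 lower), and scaling by total reads gave 3 in HOXA9. For control levels, 1.5-fold gave 4 higher and 1 lower for HOXA9 over NT and also for PML-RARa over NT, 1 lower for MLL-AF9 over NT and over HOXA9, 3 higher and 2 lower for PML-RARa over MLL-AF9, and 1 higher for PML-RARa over HOXA9. With a pseudocount of 10, 0 members were 2-fold lower for PML-RARa over MLL-AF9. The mean log2 ratio of Neu1 ran from -0.041 without the PML-RARa pair (-0.03 without the MLL-AF9 pair) to 0.152 without the NT pair, and was -0.0188 when scaled by total reads. That of Gaa in the transduced contexts ran from -0.032 without the HOXA9 pair to 0.25 without the MLL-AF9 pair.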
